A study of Mus musculus with 6 samples.

Results

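Macrophages of malignant pleural effusion (MPE) were examined for 36 genes that dividing cells use in an ordered way. The genes were taken by symbol from a deposited table of 23302 genes. The list has 16 replication genes, Mcm2 to Slbp, and 20 mitosis genes, Mki67 to Nusap1. All 36 were found in the table, and all 36 passed the filter on low values. The macrophages were isolated with beads against F4/80, a surface protein of mouse macrophages, from effusions collected 10 days after injection of MC38 cells, a mouse colon adenocarcinoma line. There were 3 libraries from IL-10-/- mice and 3 from WT mice. Both groups were C57BL/6, both received the same tumour cells, and the study matched them for sex, age and weight. The IL-10-/- mice came from Jackson Laboratory and the WT mice from Vital River, so that supplier and genotype cannot be told apart. Whether each library came from 1 mouse or from a pool is not in the labels, so the p-values reflect variation among libraries that may be technical. The sources also state that isolated cells were put into culture medium for further use, without saying whether this came before RNA extraction.

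Replication genes are switched on as a cell leaves G1, when E2F transcription factors are released from the retinoblastoma family. Their products load the helicase onto origins, make deoxynucleotides and copy the DNA. Mitosis genes follow later, once the MuvB complex with B-MYB and FOXM1 acts at their promoters, and their products condense chromosomes, build the spindle and time anaphase. Resident macrophages of the serous cavities are known to renew themselves by local division, whereas macrophages that come from blood monocytes depend on cells that divided in the marrow.

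Levels are in FPKM, the number of fragments divided by transcript length and by the library total. Since these values no longer hold the read totals, the depth of a library is unknown and counting error weighs most on low genes. Between 11602 and 11935 genes reached 1 FPKM in each library. Il10, the targeted gene, was at 59.2, 62.0 and 42.4 FPKM in libraries with the IL-10-/- label, against 6.43, 33.3 and 7.33 FPKM in the WT libraries, with an adjusted p of 0.14 from limma. A plain loss of the transcript would have given the opposite order, so the groups are named by their labels, and every direction rests on those labels. Macrophage genes were abundant in both groups. Lyz2, the lysozyme gene of myeloid cells, averaged 7956 ± 1270 FPKM in IL-10-/- libraries and 4493 ± 927 FPKM in WT libraries (SD, n = 3 each). C1qb, a complement subunit made by tissue macrophages, averaged 1590 ± 185 FPKM in IL-10-/- libraries and 1551 ± 425 FPKM in WT libraries.

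To show how the 2 classes differ in their control regions, RefSeq promoter windows of GRCm38.p6 were searched for 3 motifs on both strands, in the 250 bases before the transcription start. The motifs were the cell cycle genes homology region (CHR, TTTGAA or TTTAAA), to which MuvB binds, a core E2F site (TTTCGCGC, TTTGGCGC, TTCGCGCC, TTGGCGCC or TTCCCGCC) and the CCAAT box, to which NF-Y binds. TTTAAA reads the same on both strands, the E2F variants overlap each other, and an E2F match can overlap a CCAAT match. A window was found for 29 of the 36 genes, 13 of replication and 16 of mitosis. The CHR was in 11 of the 16 mitosis windows and 3 of the 13 replication windows, against 20.8% of the genes tested here that had a window. The E2F core was in 2 of 16 mitosis windows and 3 of 13 replication windows, against 7.19% of those genes, and the CCAAT box in 14 of 16 and 9 of 13, against 40.5%. With the search run on to 50 bases after the start, an extent chosen after the data were seen, the CHR was in 14 of 16 mitosis and 5 of 13 replication windows (22.5% of genes tested), and the E2F core in 2 of 16 and 6 of 13 (8.41%). A match describes the letters only, and does not show a site in use.

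Stretches of 5 promoters are given with the motif matches in capitals, ATTGG being the CCAAT box on the other strand. Ccnb2 and Cdk1 are shown as mitosis genes whose levels moved most between the libraries of a group, Mcm5 as a helicase gene, and Uhrf1 and Cenpa as the members whose groups did not overlap.
Ccnb2, chr9:70421555-70421649, minus strand: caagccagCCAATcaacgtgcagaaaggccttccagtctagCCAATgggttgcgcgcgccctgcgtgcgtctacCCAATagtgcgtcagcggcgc
Cdk1, chr10:69352913-69353052, minus strand: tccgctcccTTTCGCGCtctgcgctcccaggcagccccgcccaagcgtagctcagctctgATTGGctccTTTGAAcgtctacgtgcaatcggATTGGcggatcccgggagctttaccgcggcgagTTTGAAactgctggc
Cenpa, chr5:30666771-30666885, plus strand: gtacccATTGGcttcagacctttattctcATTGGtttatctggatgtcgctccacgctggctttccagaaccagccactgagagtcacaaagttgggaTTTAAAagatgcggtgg
Mcm5, chr8:75109349-75109438, plus strand: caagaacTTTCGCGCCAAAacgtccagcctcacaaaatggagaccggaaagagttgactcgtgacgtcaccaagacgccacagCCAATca
Uhrf1, chr17:56303277-56303336, plus strand: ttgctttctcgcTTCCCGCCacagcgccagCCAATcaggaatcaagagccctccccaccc
Ccnb2 carried 3 CCAAT boxes in a row, and a CHR match lay upstream of its stretch. The stretch of Cdk1 held an E2F core, 2 CCAAT boxes and 2 CHR matches, and a further E2F core and CCAAT box lay upstream of it. In Mcm5 the E2F letters were 3 overlapping variants, and the stretch of Uhrf1 had a single E2F core before a CCAAT box. Outside its stretch Mcm5 also had a CHR match upstream and a further CCAAT box nearer the start. Cenpa had a CHR match and a pair of CCAAT boxes.

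None of the 36 genes passed the test between IL-10-/- and WT macrophages. The test was limma's linear model of log2(FPKM + 1), with p adjusted after Benjamini and Hochberg over 11838 genes and a threshold of 0.05. Over all genes 1.09% were called, 72 higher and 57 lower, so that 0 of 36 is close to that background. The adjusted p of the members ran between 0.28 and 0.997. At an unadjusted p of 0.05, 1 member was higher (Uhrf1) and 1 lower (Cenpa), against 611 higher and 664 lower among all genes. The log2 fold change was above 0 in 28 members and below 0 in 8. Its median was 0.26 in replication genes and 0.17 in mitosis genes, against 0.00 over all genes tested. Members had a median standard error of 0.27, against 0.18 over all genes, and differences of the size of these medians were not detectable with this spread. The medians depended on single libraries, and that of the mitosis genes changed sign. Without IL-10-/- replicate 1 the median was 0.06 in replication and −0.06 in mitosis genes, without WT replicate 1 it was 0.04 and −0.04, and without IL-10-/- replicate 3 it was 0.58 and 0.40, again with no member called. Without IL-10-/- replicate 3, 11 members had an unadjusted p under 0.05, and the smallest adjusted p of a member from limma was 0.14. Since these are bulk samples, fewer dividing cells and less RNA of these genes per cell cannot be told apart.

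**Figure D1:**
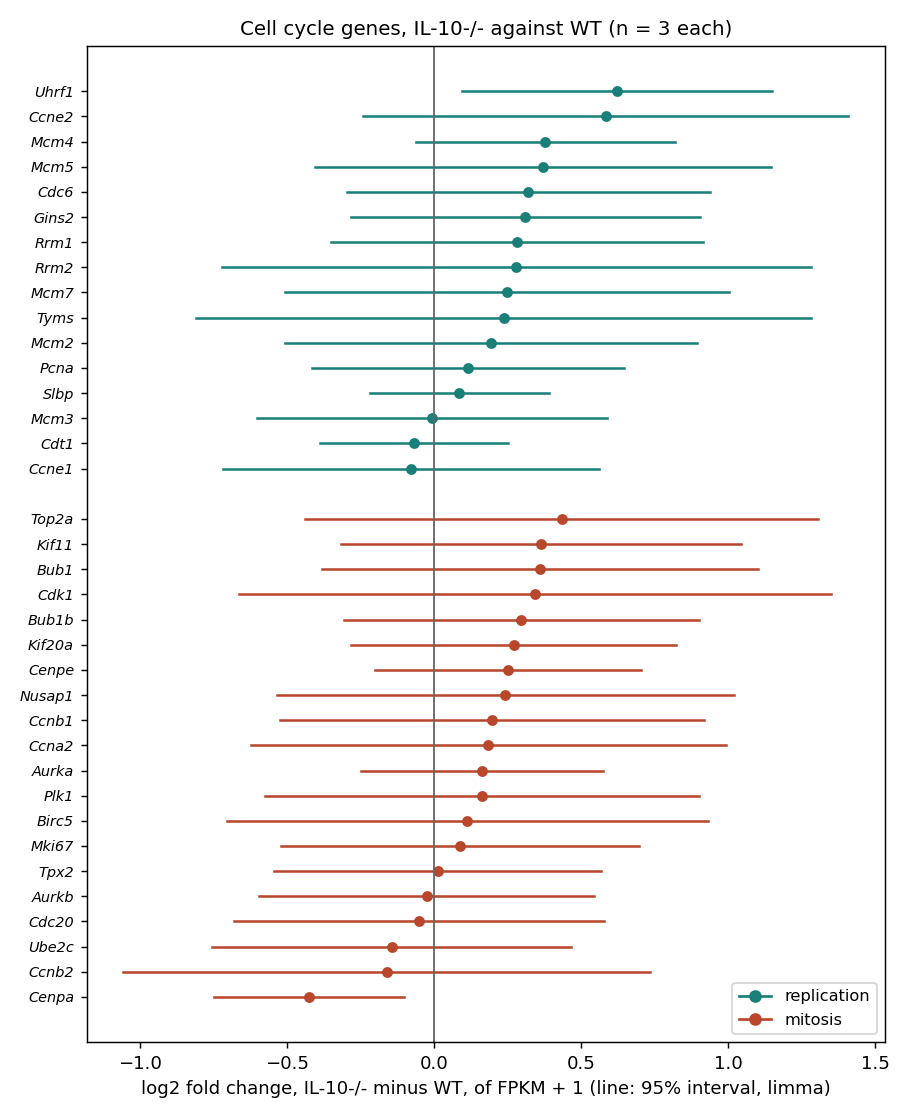
Log2 fold change of FPKM + 1, IL-10-/- minus WT (n = 3 libraries each), for the 16 replication genes and the 20 mitosis genes, on the horizontal axis, 1 gene a row. Points are limma estimates and lines their 95% intervals, and only the lines of Uhrf1 (above 0) and Cenpa (below 0) leave out 0, at unadjusted p.

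Among the replication genes, those of the MCM helicase, the motor that unwinds DNA at the fork, were at moderate levels. Mcm2 was at 11.5, 9.84 and 5.49 FPKM in IL-10-/- libraries, against 5.12, 7.26 and 10.6 FPKM in WT libraries. Mcm5 was at 15.3, 13.4 and 5.64 FPKM in IL-10-/- libraries, against 6.39, 7.48 and 10.4 FPKM in WT libraries, with a log2 fold change of 0.37 (95% interval −0.41 to 1.15). In both genes the groups overlapped, and IL-10-/- replicate 3 lay far under the other libraries of its group. Mcm4 came closest of the MCM genes to a separation, with 13.5, 13.0 and 8.81 FPKM in IL-10-/- libraries, against 7.47, 9.67 and 9.09 FPKM in WT libraries (log2 fold change 0.38, standard error 0.19, adjusted p = 0.56). Mcm3 did not lean either way, at 23.6, 21.8 and 16.7 FPKM in IL-10-/- libraries and 15.1, 18.6 and 31.0 FPKM in WT libraries. Mcm7 had a log2 fold change of 0.25, and its exons overlap those of Ap4m1, Cops6 and the microRNA genes Mir25 and Mir93. Gins2, a subunit of the GINS complex that joins MCM in the active helicase, had a log2 fold change of 0.31 (interval −0.29 to 0.90).

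Pcna, the sliding clamp that holds polymerase on DNA, was by far the most abundant member. It was at 158, 151 and 136 FPKM in IL-10-/- libraries, against 93.6, 171 and 159 FPKM in WT libraries. WT replicate 1 alone stood low, by 0.81 on the log2 scale under the other WT libraries, while IL-10-/- replicate 3 was only 0.18 under its group. Among the replication genes, Rrm2 and Tyms, both of deoxynucleotide supply, varied most within groups. Rrm2, the regulated subunit of ribonucleotide reductase, was at 16.4, 13.9 and 5.05 FPKM in IL-10-/- libraries, against 4.85, 10.7 and 11.8 FPKM in WT libraries. Tyms, thymidylate synthase, was at 18.1, 18.1 and 7.31 FPKM in IL-10-/- libraries, against 5.37, 14.9 and 17.3 FPKM in WT libraries. In both genes IL-10-/- replicate 3 and WT replicate 1 lay far under the other 4 libraries, and the spread within groups exceeded the difference between them. Rrm1, the large subunit of the same reductase, followed with a log2 fold change of 0.28 (interval −0.35 to 0.92).

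The licensing factors, which load MCM onto origins in G1, gave different pictures. Cdc6 was scarce, at 2.21, 1.59 and 0.681 FPKM in IL-10-/- libraries, against 0.630, 1.15 and 1.04 FPKM in WT libraries. Cdt1 was nearly flat, at 9.31, 9.42 and 8.97 FPKM in IL-10-/- libraries, against 9.24, 9.02 and 11.1 FPKM in WT libraries, and had the smallest spread within groups of all members (0.11 on the log2 scale, against a median of 0.41 over the 36 genes). Slbp, which binds the stem loop of histone messages, was as steady, at 35.2, 31.1 and 33.7 FPKM in IL-10-/- libraries and 28.5, 34.1 and 31.6 FPKM in WT libraries. The exons of Slbp overlap those of Gm10459. The E cyclins, partners of CDK2 at the entry into S phase, were low. Ccne1 was between 1.29 and 3.63 FPKM in IL-10-/- libraries and between 2.06 and 3.37 FPKM in WT libraries. Ccne2 was at 3.43, 3.63 and 1.30 FPKM in IL-10-/- libraries, against 0.734, 2.72 and 1.17 FPKM in WT libraries, a log2 fold change of 0.58 with a wide interval (−0.24 to 1.41), and its exons overlap Ints8.

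Uhrf1 was the replication gene whose groups did not overlap. It encodes a protein that brings DNA methyltransferase to newly copied DNA, and lies on chromosome 17 of GRCm38, from 56303321 to 56323486. It was at 8.28, 5.78 and 4.19 FPKM in IL-10-/- libraries, against 2.95, 3.49 and 4.06 FPKM in WT libraries. The lowest IL-10-/- library and the highest WT library were close to each other. The log2 fold change was 0.62 (standard error 0.23, interval 0.09 to 1.15), with an adjusted p of 0.35 that does not pass. Such a separation was also seen in 15.4% of all genes tested, and in 2 of the 36 members.

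Among the mitosis genes, Mki67, the gene of the Ki-67 antigen used to mark cycling cells, averaged 7.64 FPKM in IL-10-/- libraries and 6.93 FPKM in WT libraries. By library it was at 10.5, 7.59 and 4.83 FPKM in IL-10-/- libraries, against 5.23, 8.07 and 7.50 FPKM in WT libraries. The log2 fold change was 0.09 (interval −0.52 to 0.70), so that neither a moderate increase nor a moderate decrease is outside the interval. Top2a, the topoisomerase that untangles sister chromatids, was at 25.0, 17.8 and 8.70 FPKM in IL-10-/- libraries, against 7.33, 15.2 and 13.3 FPKM in WT libraries. Its log2 fold change of 0.43 (standard error 0.38) was the highest of the mitosis genes and did not pass (adjusted p = 0.80).

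Cdk1, the kinase that drives entry into mitosis, was the most abundant of the cyclin and kinase genes among the members. It was at 34.0, 24.3 and 11.96 FPKM in IL-10-/- libraries, against 9.01, 25.7 and 20.0 FPKM in WT libraries. IL-10-/- replicate 3 lay 1.20 under the other libraries of its group on the log2 scale, and WT replicate 1 lay 1.24 under its own. Its cyclin partners showed the same 2 low libraries. Ccnb1 was at 6.94, 6.25 and 2.74 FPKM in IL-10-/- libraries, against 2.90, 4.99 and 5.10 FPKM in WT libraries. Ccnb2 was at 13.2, 9.57 and 3.996 FPKM in IL-10-/- libraries, against 6.12, 9.93 and 12.5 FPKM in WT libraries, and its log2 fold change was below 0 (−0.16, interval −1.06 to 0.73). Ccna2, the cyclin of S phase and early mitosis, had a log2 fold change of 0.18, and its exons overlap Exosc9.

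The genes of the anaphase promoting complex, which ends mitosis by marking proteins for destruction, leaned slightly below 0. Cdc20, its activator, was at 7.34, 4.33 and 3.10 FPKM in IL-10-/- libraries and 3.72, 5.35 and 5.76 FPKM in WT libraries. Ube2c, its ubiquitin-conjugating enzyme, was at 20.1, 15.6 and 10.2 FPKM in IL-10-/- libraries and 13.1, 15.4 and 21.8 FPKM in WT libraries. Their log2 fold changes of −0.05 and −0.14 were both well within the spread.

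A pair of mitotic kinases departed from the common pattern of the libraries. Plk1, which acts at centrosomes and kinetochores, was at 6.37, 2.57 and 2.22 FPKM in IL-10-/- libraries, against 3.90, 2.45 and 2.58 FPKM in WT libraries. Aurkb, the kinase of the chromosomal passenger complex, was at 8.65, 6.00 and 3.83 FPKM in IL-10-/- libraries, against 6.42, 5.26 and 6.41 FPKM in WT libraries. In both, WT replicate 1 was not the lowest of its group. Birc5, the survivin subunit of the same complex, did show it low, with 7.91 FPKM in WT replicate 1, against 16.5 and 17.5 FPKM in the other WT libraries. Aurka, the kinase of spindle poles, was between 3.49 and 4.37 FPKM in IL-10-/- libraries and between 2.85 and 4.31 FPKM in WT libraries.

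The remaining spindle and checkpoint genes were between 0.902 and 6.76 FPKM in all libraries. Bub1 and Bub1b, which hold anaphase until chromosomes are attached, had log2 fold changes of 0.36 and 0.30. Kif11, the motor that separates spindle poles, and Kif20a, a motor of cytokinesis, had 0.36 and 0.27, Nusap1, which bundles spindle microtubules, had 0.24, and Tpx2, which activates Aurora A, had 0.01. Cenpe, the motor that moves chromosomes to the metaphase plate, was at 2.66, 1.99 and 1.91 FPKM in IL-10-/- libraries, against 1.20, 1.98 and 1.89 FPKM in WT libraries. The intervals of all 7 differences included 0. Of the 36 members, 11 have exons that overlap an exon of another gene, and no source used here says whether reads were counted by strand.

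Cenpa went the other way. It encodes the histone H3 variant that marks centromeres, and lies on chromosome 5 of GRCm38, from 30666777 to 30674830. It was at 33.0, 28.0 and 29.8 FPKM in IL-10-/- libraries, against 36.3, 45.0 and 41.8 FPKM in WT libraries. Every IL-10-/- library was below every WT library, and the means were 30.3 ± 2.51 FPKM in IL-10-/- libraries and 41.0 ± 4.43 FPKM in WT libraries (SD, n = 3 each). The log2 fold change was −0.43 (standard error 0.14, interval −0.75 to −0.10), with an adjusted p of 0.28 that does not pass. Cenpa was the only member whose lowest value came from IL-10-/- replicate 2, and its IL-10-/- replicate 3 differed from the others of the group by −0.03 on the log2 scale, where the median over the 36 members was −0.78. The log2 fold change was below 0 in each of the 15 alternatives tried.

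The larger differences among these genes were between libraries of the same group. IL-10-/- replicate 1 was the highest of all 6 libraries in 27 of the 36 members. WT replicate 1 was the lowest in 19, IL-10-/- replicate 3 in 16 and IL-10-/- replicate 2 in 1. Within the groups, IL-10-/- replicate 3 was the lowest of its group in 34 members (35.4% of all genes tested) and WT replicate 1 the lowest of its group in 33 (38.3%). Both held at once in 31 of 36, against 15.9% of all genes tested. The exceptions were Cdt1, Slbp, Plk1, Aurkb and Cenpa. The median distance of IL-10-/- replicate 3 from the other IL-10-/- libraries was −0.78 on the log2 scale over the members and 0.02 over all genes, and that of WT replicate 1 from the other WT libraries was −0.46 and 0.01.

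**Figure D2:**
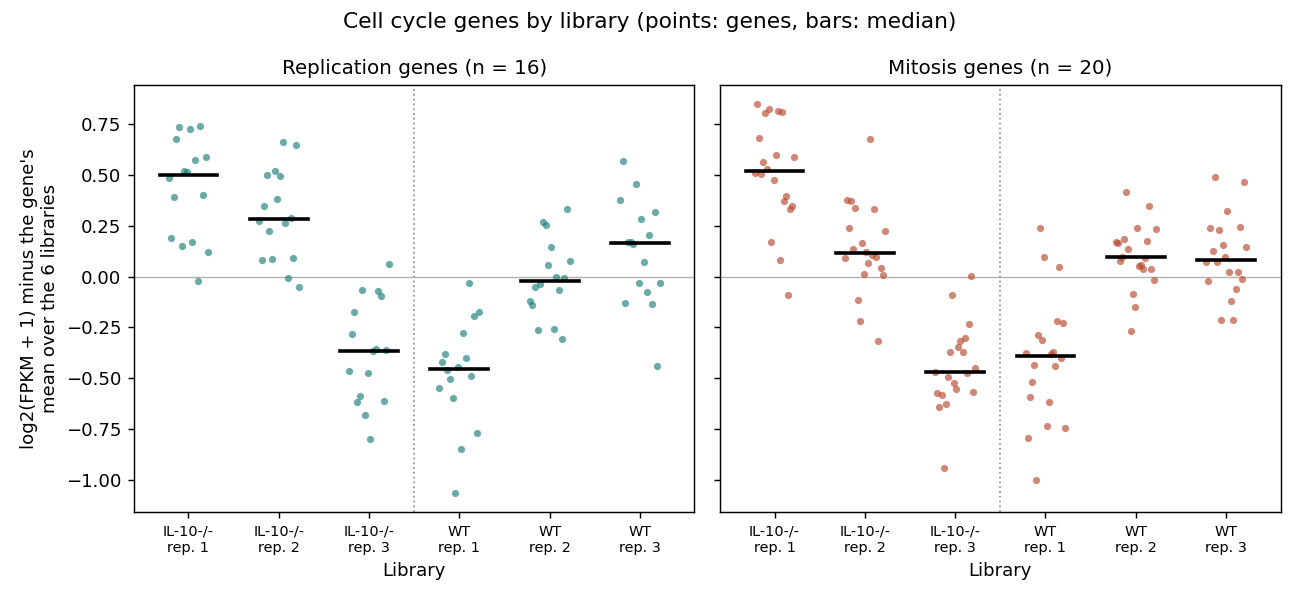
Members in each library, as log2(FPKM + 1) minus the gene's mean over the 6 libraries (vertical axis), with the 3 IL-10-/- libraries left of the 3 WT libraries. Each point is a gene and each bar the median of the panel's genes, for 16 replication genes (left) and 20 mitosis genes (right). In both panels most genes of IL-10-/- replicate 3 and of WT replicate 1 lie below 0 and most genes of IL-10-/- replicate 1 lie above it.

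Replication and mitosis genes had a similar order across the libraries. The mean of log2(FPKM + 1) over the replication genes was 3.83, 3.70 and 3.03 in IL-10-/- libraries, against 2.92, 3.39 and 3.52 in WT libraries. Over the mitosis genes it was 3.31, 2.94 and 2.36 in IL-10-/- libraries, against 2.40, 2.90 and 2.91 in WT libraries. The same pair of libraries was lowest by both measures. The mean of the replication genes was 3.52 ± 0.43 in IL-10-/- libraries and 3.28 ± 0.31 in WT libraries, and that of the mitosis genes was 2.87 ± 0.48 in IL-10-/- libraries and 2.74 ± 0.29 in WT libraries (SD, n = 3 each). Both differences between groups were smaller than 1 SD within a group. Subtracting the replication mean from the mitosis mean gave −0.52, −0.76 and −0.67 in IL-10-/- libraries, against −0.52, −0.49 and −0.61 in WT libraries. The groups overlapped, and the balance of the classes differed by −0.11 (IL-10-/- minus WT), about the spread within a group (SD 0.12 in IL-10-/- and 0.06 in WT). These means describe the list and were not tested. With both IL-10-/- replicate 3 and WT replicate 1 left out, a choice made after the data were seen, the differences were 0.31 for replication, 0.22 for mitosis and −0.09 for their balance, 7 members had an unadjusted p under 0.05, and 0 were called.

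Marker genes of several cell types moved with these libraries. Summed FPKM over 12 genes of resident serous cavity macrophages, among them Prg4 and Fn1, was 1962, 2619 and 1072 in IL-10-/- libraries, against 1645, 2412 and 1818 in WT libraries. Fn1 made up a large part of these sums and was highest of its group in WT replicate 1, at 1174, 875 and 663 FPKM in WT libraries. IL-10-/- replicate 3 was the lowest of its group in 10 of these 12 genes (35.4% of all genes tested) and WT replicate 1 in 11 (38.3%), with both in 9 (15.9%). Unlike most cell cycle genes, 0 of the 12 were highest of their group in IL-10-/- replicate 1 (30.2% of all genes tested). Adgre1, which encodes F4/80 itself and was named after its values were seen, was at 177, 228 and 65.2 FPKM in IL-10-/- libraries, against 73.0, 147 and 107 FPKM in WT libraries, and so was lowest in the same pair. That these 2 libraries are low in resident macrophage genes was already known from this table and is no independent support. The 12-gene macrophage list as a whole summed to 13226, 15334 and 12269 FPKM in IL-10-/- libraries, against 9030, 11087 and 9504 FPKM in WT libraries. The part of these cells in the levels of the cell cycle genes was not tested.

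T cell genes stood highest in IL-10-/- replicate 1, where most cell cycle genes did. The 12 T cell genes summed to 176, 79.2 and 78.4 FPKM in IL-10-/- libraries, against 56.0, 51.5 and 73.3 FPKM in WT libraries. All 12 were highest of their group in IL-10-/- replicate 1, against 30.2% of all genes tested. The low libraries of the cell cycle genes were not shared to the same extent. IL-10-/- replicate 3 was lowest of its group in 6 of the 12 T cell genes and WT replicate 1 in 4 (35.4% and 38.3% of all genes tested), with both in 1 (15.9%). Cd3g, a subunit of the T cell receptor complex, was at 31.0, 16.9 and 16.1 FPKM in IL-10-/- libraries, against 9.23, 9.19 and 12.3 FPKM in WT libraries. The 7 NK cell genes summed to 76.0, 39.9 and 43.1 FPKM in IL-10-/- libraries, against 57.3, 108 and 129 FPKM in WT libraries. All 7 were highest of their group in IL-10-/- replicate 1 and lowest of their group in WT replicate 1 (30.2% and 38.3% of all genes tested). The 8 B cell genes summed to 81.8, 63.7 and 41.0 FPKM in IL-10-/- libraries, against 112, 93.3 and 105 FPKM in WT libraries. Of these 8, 7 were highest of their group in IL-10-/- replicate 1 and 7 lowest of it in IL-10-/- replicate 3. Only 1 was lowest of its group in WT replicate 1. The part of lymphocytes in the cell cycle levels was not tested.

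**Figure D3:**
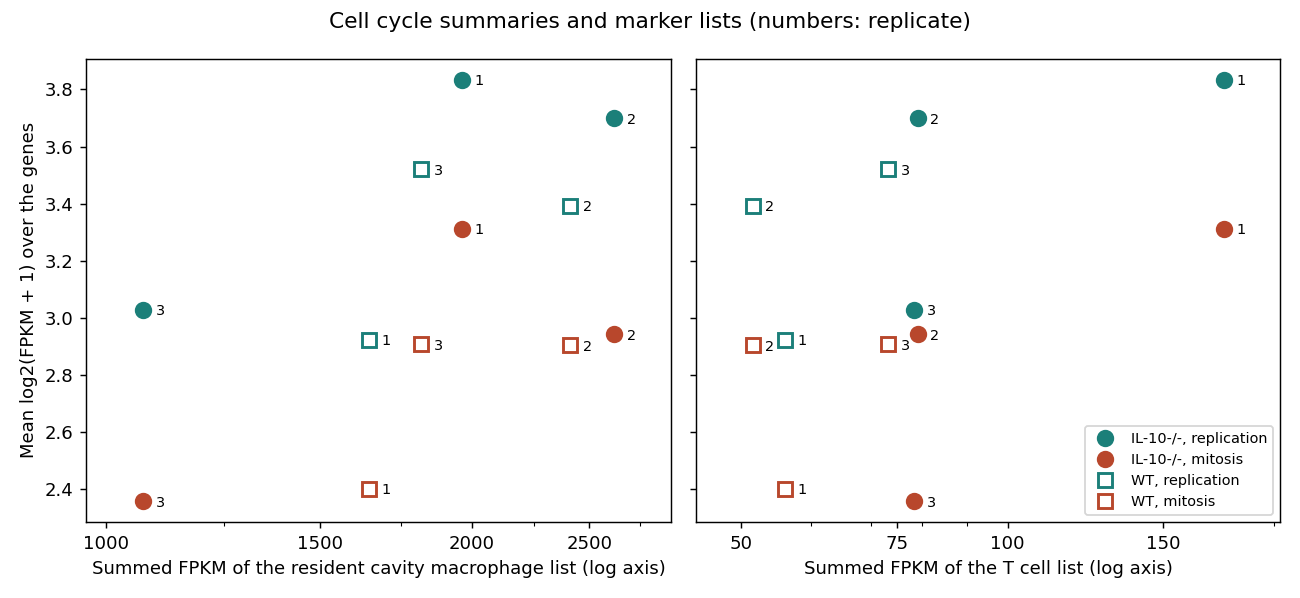
Mean log2(FPKM + 1) of the replication and of the mitosis genes in each library (vertical axis) against the summed FPKM of the resident cavity macrophage list (left) and of the T cell list (right), both on log axes. Filled circles are IL-10-/- and open squares WT libraries, numbered by replicate. IL-10-/- replicate 3 is lowest of all in resident macrophage genes (1072 FPKM), and IL-10-/- replicate 1 stands apart in T cell genes (176 FPKM).

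The sums of 4 further lists did not overlap between the groups, which also held for the macrophage, T cell and B cell sums above. Lyz2 made up a large part of the macrophage sums, at 7902, 9252 and 6714 FPKM in IL-10-/- libraries, against 4407, 5460 and 3612 FPKM in WT libraries. Of the 13 entries for the 12 macrophage genes, 2 were higher in every IL-10-/- library than in every WT library (7.8% of all genes tested), and 0 were called. Monocyte genes summed to 8090, 12029 and 9260 FPKM in IL-10-/- libraries, against 6536, 5383 and 4744 FPKM in WT libraries. Neutrophil genes summed to 586, 429 and 769 FPKM in IL-10-/- libraries, against 1740, 2374 and 1811 FPKM in WT libraries. Of the 11 neutrophil genes 5 were called lower, and of the 6 monocyte genes 1 was called higher. Over all genes tested 1.09% were called in either direction. Neither list had the order of the cell cycle genes within the groups. Red cell genes summed to 3786, 2849 and 972 FPKM in IL-10-/- libraries, against 7236, 5694 and 12687 FPKM in WT libraries, so that they followed the cell cycle genes in order among the IL-10-/- libraries but not among the WT libraries. Dendritic cell genes summed to between 10.4 and 12.5 FPKM in IL-10-/- libraries and between 15.7 and 25.2 FPKM in WT libraries. The 10 epithelial and tumour genes summed to between 8.16 and 15.1 FPKM in IL-10-/- libraries and between 8.49 and 14.5 FPKM in WT libraries. IL-10-/- replicate 3 and WT replicate 1 were both lowest of their groups in 3 of the 4 that could be tested. Epcam was between 0.143 and 0.504 FPKM in IL-10-/- libraries and between 0.225 and 0.591 FPKM in WT libraries, and Cldn4 and Cldn7 were listed at 0 in some libraries of each group. Mesothelial genes (at most 4.45 FPKM in sum) and fibroblast genes (at most 18.6 FPKM) were also low, and no marker was at 0 in all libraries. The part of red cells and of other cells in the cell cycle levels was not tested.

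Genes of the same processes outside the 36 members were read from further lists. Of 42 other replication genes, 40 could be tested, 0 were called, and 33 lay above 0, with a median log2 fold change of 0.20. IL-10-/- replicate 3 and WT replicate 1 were both lowest of their groups in 28 of these 40. Cdc7, the kinase that fires loaded origins, was at 2.73, 1.51 and 2.24 FPKM in IL-10-/- libraries, against 0.840, 1.20 and 1.16 FPKM in WT libraries, without overlap and with an adjusted p of 0.31. Pola2, a subunit of the primase polymerase, averaged 7.27 ± 0.90 FPKM in IL-10-/- libraries and 5.53 ± 0.48 FPKM in WT libraries, and Pold1, the catalytic subunit of polymerase delta, averaged 7.31 ± 0.71 FPKM in IL-10-/- libraries and 5.60 ± 0.74 FPKM in WT libraries (SD, n = 3 each), both without overlap. In all, 7 of the 40 were higher in every IL-10-/- library than in every WT library and 1 was lower, against 7.8% and 7.59% of all genes tested. The abundant Rfc2, of the clamp loader, and Rpa3, of the single-strand binding complex, overlapped, with log2 fold changes of 0.18 and 0.45.

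Of 49 other mitosis genes, 43 could be tested, 0 were called, 32 lay above 0, and the median log2 fold change was 0.11. None of these 43 was separated between the groups, and 34 were lowest in IL-10-/- replicate 3 and in WT replicate 1 of their groups. Pbk, a mitotic kinase, had the largest log2 fold change of those named, 0.66 (interval −0.06 to 1.38), with 3.24, 5.11 and 2.77 FPKM in IL-10-/- libraries, against 1.02, 3.44 and 1.75 FPKM in WT libraries. Spc25 and Cenpm, both of the kinetochore, had 0.44 and 0.28. Cks2, a CDK-binding subunit, and Pttg1, the securin that guards sister cohesion, were abundant and had 0.11 and 0.27.

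The regulators of G1 gave a mixed picture. Of 9 cyclins, CDKs and related genes, IL-10-/- replicate 3 and WT replicate 1 were both lowest in only 2. Ccnd1, cyclin D1, was one of them, at 45.4, 51.0 and 16.6 FPKM in IL-10-/- libraries, against 10.0, 16.7 and 22.8 FPKM in WT libraries. Its log2 fold change of 1.06 (standard error 0.43) did not pass (adjusted p = 0.42). With those 2 libraries left out, a choice made after the data were seen, it was 1.26 with an adjusted p of 0.034 from limma (0.034 to 0.89 over all alternatives). Leaving out IL-10-/- replicate 3 removed the only IL-10-/- value of Ccnd1 within the WT range, so that setting gives no independent support. Ccnd3, the most abundant D cyclin, was at 161, 142 and 150 FPKM in IL-10-/- libraries, against 185, 175 and 215 FPKM in WT libraries, without overlap (log2 fold change −0.34, adjusted p = 0.44). Ccnd2 had a log2 fold change of 0.22. The D cyclins thus pointed in different directions, and none of the differences passed.

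Among their partners, Cdk6 was at 12.6, 7.06 and 15.7 FPKM in IL-10-/- libraries, against 21.8, 11.1 and 19.2 FPKM in WT libraries. Cdk4 averaged 53.2 ± 8.88 FPKM in IL-10-/- libraries and 61.7 ± 8.88 FPKM in WT libraries, and Cdk2, the partner of cyclins E and A, averaged 9.59 ± 0.13 FPKM in IL-10-/- libraries and 9.88 ± 0.63 FPKM in WT libraries (SD, n = 3 each). Ccnh, the cyclin of the CDK-activating kinase, was at 22.7, 26.8 and 21.2 FPKM in IL-10-/- libraries, against 10.7, 18.6 and 17.9 FPKM in WT libraries (adjusted p = 0.35), while its partner Cdk7 had a log2 fold change of 0.07. Cdc25a, a phosphatase that activates CDK2, had 0.16.

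CDK inhibitors, which hold cells in G1, were measured as a list of 7. The log2 fold change was below 0 in all 5 that could be tested (median −0.44), and in 4 of the 5 every IL-10-/- library was below every WT library, against 7.59% of all genes tested. None passed the test. Cdkn2d (p19) had the smallest adjusted p, 0.20, at 43.0, 44.5 and 40.4 FPKM in IL-10-/- libraries, against 52.8, 65.5 and 62.4 FPKM in WT libraries. Cdkn1b (p27) was at 34.9, 38.7 and 45.9 FPKM in IL-10-/- libraries, against 56.5, 57.1 and 49.1 FPKM in WT libraries. Cdkn1a (p21), the target of p53, was at 211, 198 and 209 FPKM in IL-10-/- libraries, against 251, 266 and 234 FPKM in WT libraries, above the level of any replication or mitosis gene named here. Of these 3 genes only Cdkn2d had its lowest values in IL-10-/- replicate 3 and WT replicate 1, which also held for Cdkn2a and Cdkn2c. Cdkn2a was at 1.67, 1.47 and 0.492 FPKM in IL-10-/- libraries, against 1.80, 2.63 and 2.64 FPKM in WT libraries, and Cdkn2c had a log2 fold change of −0.21 with overlap. Cdkn1c and Cdkn2b were too low to be tested, with group means of 0.431 and 0.231 FPKM in IL-10-/- libraries and 0.983 and 0.856 FPKM in WT libraries.

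Of 20 E2F, retinoblastoma and DREAM genes, 0 were called, 14 lay above 0 and the median log2 fold change was 0.10. E2f1, an activator of replication genes, was at 5.30, 5.37 and 3.68 FPKM in IL-10-/- libraries, against 2.78, 2.92 and 3.65 FPKM in WT libraries (log2 fold change 0.48, adjusted p = 0.37). Rbl1 (p107), itself an E2F target, was at 9.86, 8.69 and 6.87 FPKM in IL-10-/- libraries, against 4.88, 6.36 and 5.93 FPKM in WT libraries (log2 fold change 0.49, adjusted p = 0.33). E2f2 was also without overlap, at a log2 fold change of 0.27. Of the 20 genes, 5 were higher in every IL-10-/- library than in every WT library and 1 was lower, against 7.8% and 7.59% of all genes tested. E2f4 and Lin37, subunits of the repressor complex of resting cells, had 0.10 and −0.16. In this list both libraries were lowest of their groups in 6 of 20.

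**Figure D4:**
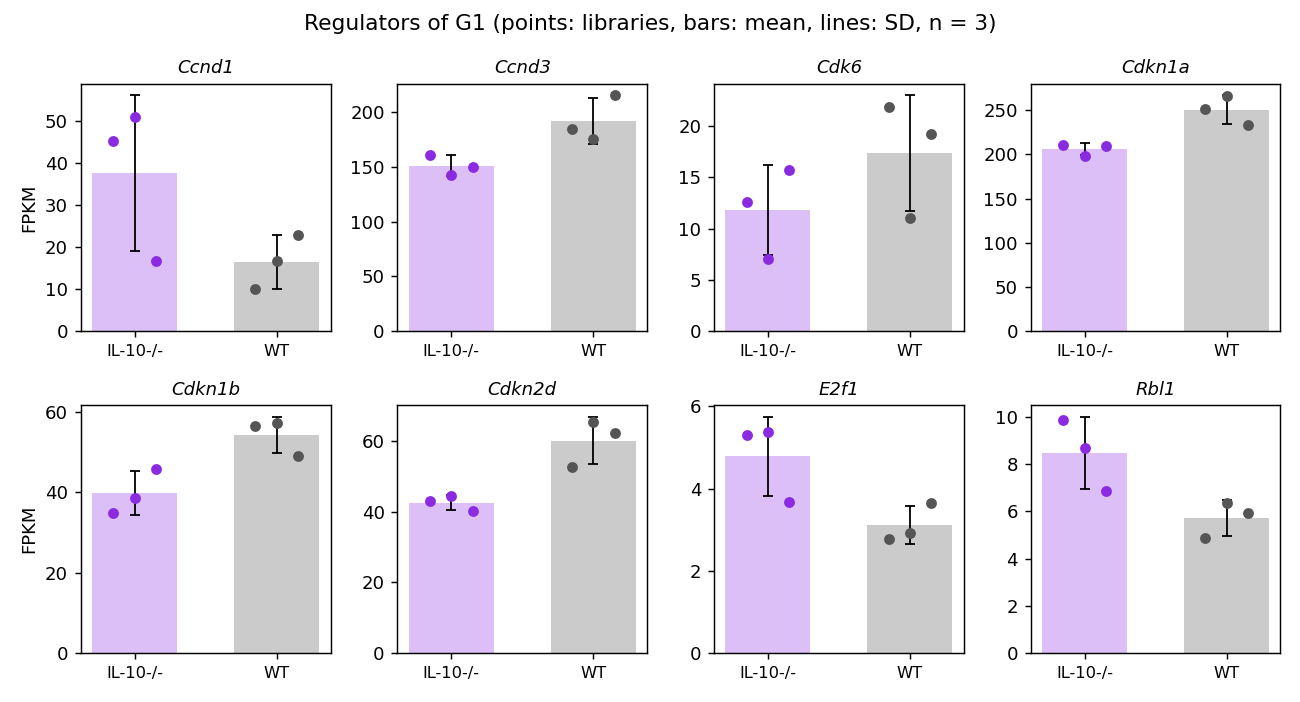
FPKM of 8 regulators of G1 and of E2F activity in each library (points), with the group mean (bars) and SD (lines), IL-10-/- left of WT, n = 3 each. Ccnd3, Cdkn1a, Cdkn1b and Cdkn2d are lower and E2f1 and Rbl1 higher in every IL-10-/- library than in every WT library, while Ccnd1 and Cdk6 overlap, and none of the 8 passed the test.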

How the data were processed

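Poly(A) RNA of MPE macrophages was sequenced as paired ends by the authors, who deposited 1 table of 23302 genes with an FPKM value per gene and library. GRCm38 is the build in the submitters' processing notes. Aligner, counting tool and strand use were not given in the sources used here. Also in the table are the authors' own fold changes, p-values, q-values and marks for genes called up or down, none of which were used. Depth is unknown, so precision rests on the spread between libraries.

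Groups came from the genotype in the labels. The 11838 genes that reached 1 FPKM in 3 or more of the 6 libraries went into a two-sided test with limma 3.58.1 (R 4.3.3) on log2(FPKM + 1) with a variance trend and Benjamini-Hochberg adjustment, and fold changes on this scale understate those of low genes. The code was tested on simulated data. The members and the gene lists were chosen with earlier results of these data known. All 36 members are named, every gene of lists of up to 10 genes, and from longer pathway lists the 3 of smallest p and the 2 of highest mean FPKM. From marker lists the 2 of highest mean FPKM qualified, of which only those beside a result are given, and Epcam, Cldn4, Cldn7 and Adgre1 were named after their values were seen. Coordinates are those of the table, exon overlaps came from the GENCODE mouse annotation, release 21 (all 36 members found), and promoters from RefSeq on GRCm38.p6. Alternatives were a pseudocount of 0.1, no filter, a filter at 5 FPKM, quantile normalization, rescaling to an equal sum, no variance trend, array weights, a replicate block and each library left out in turn.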

Additional observations from a re-analysis of the deposited data

How the results depend on the processing

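No member was called under any of the 14 alternatives named above or without both IL-10-/- replicate 3 and WT replicate 1, a setting added after the data were seen. The smallest adjusted p of a member was 0.053 (Cenpa, limma's array weights). Among the other pathway genes 1 was called with array weights (Cdkn2d, log2 fold change −0.51, adjusted p = 0.039) and 1 without both libraries (Ccnd1, 1.26, adjusted p = 0.034). Over all genes 129 were called, against 32 with no filter on low values, 482 with array weights and between 40 and 140 with 1 library left out. The median log2 fold change was between 0.04 and 0.58 for replication genes and between −0.06 and 0.40 for mitosis genes with 1 library left out, and 0.35 and 0.25 after rescaling to an equal sum. The sign was the same in every setting for 16 of the 36 members, 15 higher and Cenpa lower, and without WT replicate 1 alone 12 members changed sign. With the replicate block, 0 members and 61 genes over all were called, and the smallest adjusted p of a member was 0.41. The numbers were not taken to pair the libraries, since correlations of the deviations of same-numbered libraries were 0.09, 0.20 and 0.09. Every library correlated best with its own number, a hint from the data and not the design. Depth is unknown, which limits genes near 1 FPKM such as Cdc6, and differences within the members' intervals were not detectable.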
